A study of Mus musculus with 3 samples.

Results

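Notch receptors, their ligands and the Hes and Hey genes they switch on were read on 3 two-colour oligonucleotide arrays of mouse aorta. The 10 genes were chosen by name: the receptors Notch1, Notch2, Notch3 and Notch4, the ligands Jag1 and Dll4, and the target genes Hes1, Hey1, Hey2 and Heyl. They were picked out of 22043 features tested, by the gene name in the files or the current symbol of the probe's accession, and they have 15 of 41174 probes. Each array set RNA of 1 aorta with genotype Plk1(+/-), labelled with Cy5, against RNA pooled from 3 wild-type Plk1(+/+) aortas, labelled with Cy3. Every animal came from a mixed 129/CD1 background and was between 3 and 5 months old, and no other allele or agent is named. Where Plk1, the gene of a kinase that drives mitosis, is interrupted is not given, and the labels describe growth of embryonic stem cells while giving aorta as the tissue. The question was which transcripts differ in aortas that carry 1 intact copy of Plk1.

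Notch receptors are membrane proteins that are cut when a ligand on a neighbouring cell binds them, and the freed intracellular part enters the nucleus, joins the DNA-binding protein RBPJ and switches on genes of the Hes and Hey families. Hes and Hey proteins are basic helix-loop-helix repressors. In arteries, Dll4, Notch1 and Notch4 are known from the endothelium, while Notch3 and Heyl are known from smooth muscle, where Jag1 on endothelial and muscle cells acts as a ligand for Notch3 during the maturation of the vessel wall.

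The probes below are those on which the results turn, shown because more than 1 probe reads Heyl, Jag1 and Notch1 and 1 probe each reads the other target genes. Each is 60 bases long, written 5′ to 3′ as the scanner files give it, and no base is marked.
Heyl, brighter probe: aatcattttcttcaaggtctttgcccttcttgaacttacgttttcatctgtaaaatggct
Heyl, dimmer probe: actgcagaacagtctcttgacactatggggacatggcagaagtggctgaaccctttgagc
Hey2: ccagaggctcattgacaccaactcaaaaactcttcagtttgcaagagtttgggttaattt
Hey1: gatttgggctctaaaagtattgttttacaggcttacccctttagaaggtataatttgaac
Hes1: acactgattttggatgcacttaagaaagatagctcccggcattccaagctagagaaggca
Jag1, brighter probe: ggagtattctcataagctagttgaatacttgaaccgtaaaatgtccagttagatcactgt
Jag1, dimmer probe: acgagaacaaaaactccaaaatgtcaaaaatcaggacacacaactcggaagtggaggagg
Notch1, brighter probe: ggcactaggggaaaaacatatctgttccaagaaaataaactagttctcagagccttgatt
Notch1, dimmer probe: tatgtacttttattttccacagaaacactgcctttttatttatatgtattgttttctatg

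In the mm7 coordinates of the files, the Heyl probes lie on the plus strand at chr4:122694378-122694437 for the brighter one and chr4:122692891-122692950 for the dimmer one. Hey2 was read at chr10:30613567-30613626 and Hey1 at chr3:8669867-8669926, both on the minus strand. The Hes1 probe lies on the plus strand at chr16:29738743-29739038, an interval of 296 bases for a probe of 60 bases. The Jag1 probes lie on the minus strand at chr2:136822550-136822609 and chr2:136824059-136824118, brighter probe first. The Notch1 probes, at chr2:26466563-26466621 and chr2:26466621-26466680, lie end to end on the minus strand. Whether a probe falls in an exon or a UTR was not analysed here. Among 99 pairs of probes that belong to different members, the longest run of bases shared was 10.

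Every member was measured. All 15 probes were kept by the filter on dim probes, for which 2 arrays must show a signal clear of background in 1 of the dyes, and 0 had a saturated spot. The probe that stands for each gene, the one with the highest mean intensity, was well above background for all 10 genes, in Cy3 and in Cy5, on each of the 3 arrays. Over all probe spots, 66.0% to 69.0% were well above background in Cy3 and 77.0% to 80.8% in Cy5. The defining markers of aortic wall cells were present, with 15 of 15 smooth muscle markers and 20 of 20 endothelial markers above background in each dye and array. So were 12 of 12 skeletal muscle markers and 9 of 9 fat markers. Plk1 itself read -0.06, -0.08 and 0.42, a mean of 0.10 ± 0.28 (SD, n = 3). Whether its probe lies outside the altered part of the allele was not tested. All ratios are log2 of the sample labelled Plk1(+/-) over the pool. Unless another setting is named, they were taken after background correction and loess scaling of the dyes. A value below 0 is thus a lower scaled signal in the Plk1(+/-) sample. Raw signals are not scaled between dyes: their median on an array was 335 to 357 in Cy5 and 155 to 165 in Cy3. Since Cy5 always carried the Plk1(+/-) sample, dye and genotype cannot be told apart.

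None of the 10 genes passed the test: limma called 0 of 10 at an adjusted p under 0.05, against 0.925% of all features called in either direction and 0.889% called lower. With saturated features left out, as no member was saturated, limma called 0 of 21514. At an unadjusted p under 0.05 stood 3 of the 10, Heyl, Notch1 and Jag1, all lower, where 19.0% of all features reached that level and 9.79% were lower. The same 3 genes were below 0 on all 3 arrays, as were 19.1% of all features, and 0 of 10 were above 0 on all 3 arrays, against 26.3%. Taken probe by probe, limma called 0 of 15 after adjustment, against 0.662% of all probes, and 5 of 15 were below 0 on all 3 arrays, against 19.6%: both of Notch1, both of Heyl and the brighter one of Jag1. The median of the 10 mean ratios was -0.19, beside 0.04 over all features, and with median centring in place of loess it turned to 0.09, beside 0.23. Array by array, the members' median was 0.05, -0.22 and -0.23 in samples 1, 2 and 3, and that of all features 0.04, 0.01 and 0.04. Receptors and ligands had means between -0.26 and 0.14 with SDs up to 0.22, and the 4 target genes had means between -0.90 and -0.19 with SDs between 0.48 and 0.56. The means of the groups overlapped, since Hes1 lay above Jag1 and Notch1, and no test between the groups was made.

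**Figure D1:**
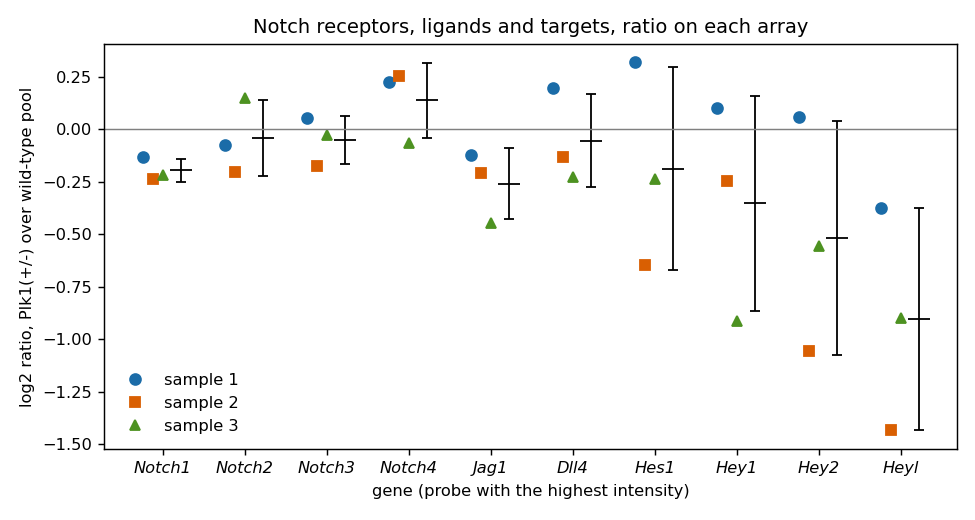
Log2 ratio of each Notch gene on each array (points, 1 shape per sample) with the mean and SD over 3 arrays (bar and whiskers, n = 3), by the probe with the highest intensity. The receptors and ligands run from -0.45 (Jag1) to 0.25 (Notch4) and the target genes from -1.43 (Heyl) to 0.32 (Hes1). Heyl is below 0 in all 3 samples at -0.38, -1.43 and -0.90.

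Among the receptors, Notch1, which acts in endothelium and in lymphocyte development, read -0.13, -0.24 and -0.22 in samples 1, 2 and 3. Its mean was -0.20 ± 0.06 (SD, n = 3; 95% interval -0.38 to -0.01; limma unadjusted p = 0.0397, adjusted p = 0.246). All 3 samples were slightly below the pool, and the spread between them was the smallest of the 10 genes. The array carries 10 spots of this probe, which gives the spread within an array: the SD over spots was 0.05, 0.05 and 0.08, over 10, 10 and 9 spots that bore no outlier flag. On sample 1 the spots ran from -0.21 to -0.06, on sample 2 from -0.36 to -0.19 and on sample 3 from -0.33 to -0.11, so every spot was below 0 and the 3 arrays overlapped. The adjoining dimmer probe read -0.19, -0.31 and -0.16, a mean of -0.22 ± 0.08.

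Notch2, a broadly expressed receptor, had no common direction. Its brightest probe read -0.08, -0.20 and 0.15, a mean of -0.04 ± 0.18 (SD, n = 3; 95% interval -0.30 to 0.21; limma adjusted p = 0.823). The other two probes had means of 0.02 ± 0.14 and -0.19 ± 0.19. The 3 probes thus differed in sign within 1 gene.

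Notch3, the receptor of vascular smooth muscle, read 0.05, -0.17 and -0.03. The mean was -0.05 ± 0.11 (SD, n = 3; 95% interval -0.26 to 0.16; limma adjusted p = 0.75). Its raw mean signals were 5597, 6268 and 6486 scanner units in Cy5 and 2109, 2783 and 2393 in Cy3, so the arrays varied by 1.16-fold in the dye of the samples and by 1.32-fold in that of the shared pool. Notch4, a receptor largely restricted to endothelium, read 0.22, 0.25 and -0.07, a mean of 0.14 ± 0.18 (95% interval -0.12 to 0.39; limma adjusted p = 0.465). It was the 1 member with a mean above 0. With median centring in place of loess, which raised the median of all features by 0.19, Notch3 turned to 0.39 and Notch4 went to 0.54, both past the adjusted threshold (limma adjusted p = 0.0321 and 0.0225), as were 44.3% of all features at that setting.

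Of the ligands, Jag1 read -0.12, -0.21 and -0.45 on its brighter probe, below the pool in all 3 samples and lowest in sample 3. The mean was -0.26 ± 0.17 (SD, n = 3; 95% interval -0.51 to -0.01; limma unadjusted p = 0.0439, adjusted p = 0.254). The dimmer probe read the other way, at 0.20, 0.23 and -0.0079, a mean of 0.14 ± 0.13. That probe was well above background in Cy3 on 2 of 3 arrays, and its signals of 92.1 to 95.3 in Cy3 compare with 1703 to 2494 for the brighter one. Averaging both probes moved the Jag1 mean to -0.06 (limma adjusted p = 0.718). Dll4, the ligand of arterial and sprouting endothelium, read 0.20, -0.13 and -0.23, above the pool in 1 sample and below it in the other two, with a mean of -0.05 ± 0.22 (95% interval -0.35 to 0.24; limma adjusted p = 0.804). Without sample 3 the Dll4 mean turned to 0.032.

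**Figure D2:**
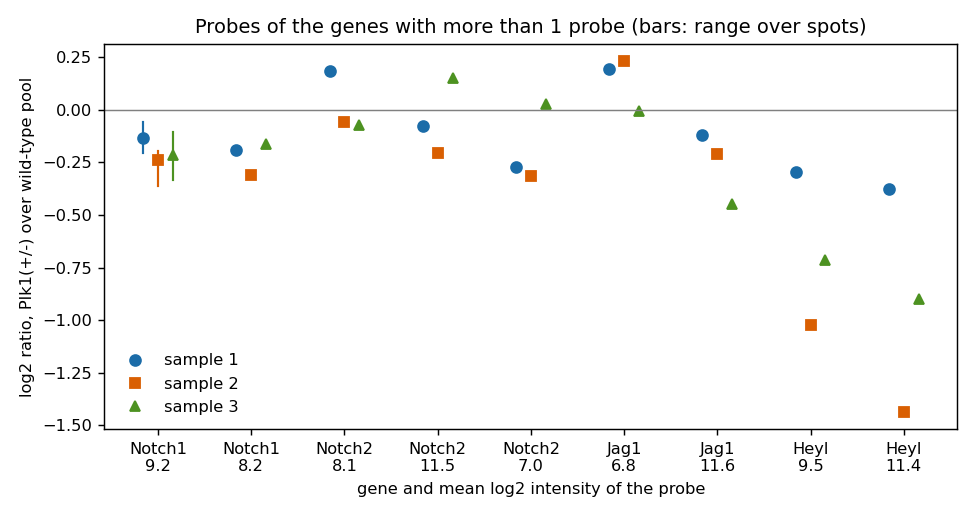
Log2 ratio on each array for every probe of the 4 genes with more than 1 probe, labelled with the gene and the probe's mean log2 intensity; vertical lines show the range over the 9 or 10 spots of the brighter Notch1 probe. Both Heyl probes and both Notch1 probes are below 0 in all samples, while the Jag1 and Notch2 probes differ in sign.

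Heyl, a Hey-family repressor that marks smooth muscle and pericytes with active Notch3, had the lowest mean of the 10 genes. Its brighter probe gave raw mean signals of 4796, 2280 and 3266 in Cy5 for samples 1, 2 and 3, against 2429, 2472 and 2227 in Cy3 for the pool. The Cy5 signal thus varied by 2.10-fold between samples, while the pool's signal varied by 1.11-fold between arrays. After loess, the log2 ratios were -0.38, -1.43 and -0.90. Their mean was -0.90 ± 0.53 (SD, n = 3; 95% interval -1.50 to -0.31), 1.87-fold lower. Limma gave an unadjusted p of 0.0126 and an adjusted p of 0.189, so the gene did not pass, and 1.71% of all features had a lower mean. The dimmer probe kept the order of the samples, at -0.29, -1.02 and -0.71 (mean -0.68 ± 0.36). Under 17 alternative settings the Heyl mean ran from -1.17 to -0.48 and the limma adjusted p from 0.0966 to 0.554. The mean of -0.48 came with median centring.

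Hey2, a repressor expressed in arterial endothelium and smooth muscle, had the next lowest mean. Its raw Cy5 signals were 772, 377 and 487, a 2.05-fold range, against 328, 341 and 309 in Cy3, a range of 1.10-fold. The ratios were 0.06, -1.06 and -0.56, near the pool in sample 1 and below it in samples 2 and 3. The mean was -0.52 ± 0.56 (SD, n = 3; 95% interval -1.14 to 0.10), with a limma unadjusted p of 0.0818 and an adjusted p of 0.315. Sample 2 carried much of it: without it the mean was -0.25 (limma adjusted p = 0.672), and without sample 1 it was -0.81 (0.137).

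Hes1, the widely expressed Hes repressor, had the same order of samples as Heyl and Hey2. Raw Cy5 signals were 523, 283 and 305 and Cy3 signals 198, 209 and 172, among the dimmer values of the set. The ratios of 0.32, -0.64 and -0.24 lay above the pool in sample 1 and below it in the other two. Their mean of -0.19 ± 0.48 (SD, n = 3; 95% interval -0.73 to 0.36; limma adjusted p = 0.631) turned to 0.042 without sample 2. Agilent's own deposited log ratio gave larger differences in samples 2 and 3 for this dim probe, at 0.29, -1.04 and -0.53 in log2.

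Hey1, the remaining Hey repressor, ordered the samples differently from the other target genes. Raw Cy5 signals were 3850, 4098 and 2611, and Cy3 signals were 1426, 1940.5 and 1808. The ratios were 0.10, -0.25 and -0.91, with sample 3 lowest, where the other three targets were lowest in sample 2. The mean was -0.35 ± 0.51 (SD, n = 3; 95% interval -0.93 to 0.22; limma adjusted p = 0.419). Without sample 3 it was -0.07, and with median centring it was 0.061. Jag1 had its lowest ratio in sample 3 as well.

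**Figure D3:**
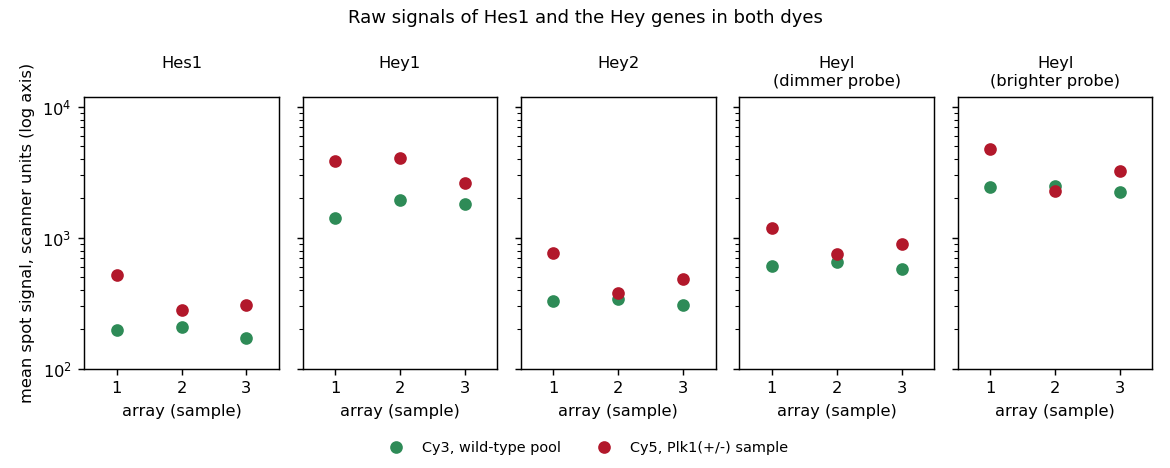
Raw mean spot signal, on a log axis, of Hes1, Hey1, Hey2 and both Heyl probes in Cy3 (shared wild-type pool) and Cy5 (1 Plk1(+/-) sample per array). The dyes are not scaled to each other here. The Cy3 points of Heyl and Hey2 are nearly level, within 1.12-fold, while their Cy5 points dip on array 2, by 2.10-fold from highest to lowest on the brighter Heyl probe.

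Ordered by mean ratio, the members ran from Heyl (-0.90) through Hey2 (-0.52), Hey1 (-0.35), Jag1 (-0.26), Notch1 (-0.20), Hes1 (-0.19), Dll4 (-0.05), Notch3 (-0.05) and Notch2 (-0.04) to Notch4 (0.14). A receptor and a target gene of smooth muscle can be set side by side within each array: Heyl minus Notch3 was -0.43, -1.26 and -0.87, a mean of -0.85 ± 0.42 (SD, n = 3), below 0 in all 3 samples. Hey2 minus Notch3 was 0.0040, -0.88 and -0.53. Hey1 minus the ligand Jag1 was 0.22, -0.04 and -0.46, a mean of -0.09 ± 0.35 with no common sign. With 3 arrays an exact test of such a difference cannot pass, and none was made.

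Among the cells known to carry these genes, smooth muscle had markers that also differed from the pool in the same arrays. The smooth muscle markers had medians of -0.36, -1.16 and -0.85 over the 11 genes without a saturated spot, and 11 of 11 were below 0 on all arrays, with means between -1.31 and -0.40. Among them, Myh11, a contractile myosin gene, read -0.94, -1.94 and -1.05. The summed raw signal of those 11 markers ranged from 70837 to 116928 in Cy5 and from 60696 to 70616 in Cy3. Heyl minus the smooth muscle median was -0.02, -0.27 and -0.05, a mean of -0.11 ± 0.14 (SD, n = 3). Heyl and the marker median were both lowest in sample 2 and least low in sample 1, while among the 11 markers 8 were lowest in sample 2 and 3 in sample 3. That order of samples was not particular to muscle: the 3 red cell markers without a saturated spot had medians of -0.49, -1.30 and -1.02. Hey2 was 0.41, 0.10 and 0.29 above the smooth muscle median and Hes1 0.68, 0.52 and 0.62 above it. Hey1 minus that median was 0.46, 0.91 and -0.06. Notch3 stood 0.41, 0.99 and 0.83 above it, a mean of 0.74 ± 0.30. The part of the muscle and red cell markers in these results was not tested. In bulk tissue, fewer cells of a type and less RNA per cell cannot be told apart.

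The endothelial markers stayed near the pool, with medians of 0.03, -0.06 and -0.18 over 20 genes. Of these, 4 were below 0 and 1 above 0 on all arrays, against 19.1% and 26.3% of all features. Means of the 20 markers lay between -0.54 and 0.16. Their summed raw signal ranged from 157247 to 189435 in Cy5 and from 68586 to 76589 in Cy3. Against this median, Dll4 differed by 0.17, -0.08 and -0.04, Notch1 by -0.16, -0.18 and -0.04 and Notch4 by 0.20, 0.31 and 0.11. Hey1 differed from it by 0.07, -0.19 and -0.73. Median centring moved the median of the endothelial list from -0.04 to 0.38, so its place beside 0 depends on the scaling. The 7 arterial endothelium markers had medians of -0.14, -0.06 and -0.31. The median was lowest in sample 3, as Hey1 and Jag1 were. Of the 7 genes, 3 were lowest in sample 1, 2 in sample 2 and 2 in sample 3. A low in sample 3 was not particular to that list. It was seen in 12 of 20 endothelial, 5 of 6 unsaturated Schwann cell and 10 of 10 unsaturated skeletal muscle markers. Of the arterial list, limma called 0 of 7, against 0.925% of all features, with 2 lower at an unadjusted p under 0.05, against 9.79%. Those were Efnb2, the arterial ephrin ligand gene, with a mean of -0.52 (limma adjusted p = 0.155), and the gap junction gene Gja4, with -0.39 (limma adjusted p = 0.182). The rest of that list had means of -0.32 (Gja5), -0.11 (Bmx), -0.03 (Unc5b), 0.01 (Sox17) and 0.19 (Nrp1). Of these, Nrp1 was above 0 on all arrays. Lymphocyte markers had medians of 0.16, 1.53 and 1.84, and 13 of 15 were above 0 on all arrays, with summed raw signals of 10046 to 47099 in Cy5 and 3956 to 4369 in Cy3. Pericyte markers had medians of -0.31, -0.71 and -0.29, adventitial fibroblast markers -0.31, -0.46 and -0.44 and skeletal muscle markers -0.69, -0.94 and -2.84. Median centring moved the median of the pericyte list from -0.40 to 0.07 and that of the fibroblast list from -0.54 to -0.10. That of all 15 smooth muscle markers, saturated ones included, moved from -1.01 to -0.66. The part of these cell types in the values of the Notch genes was not tested.

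**Figure D4:**
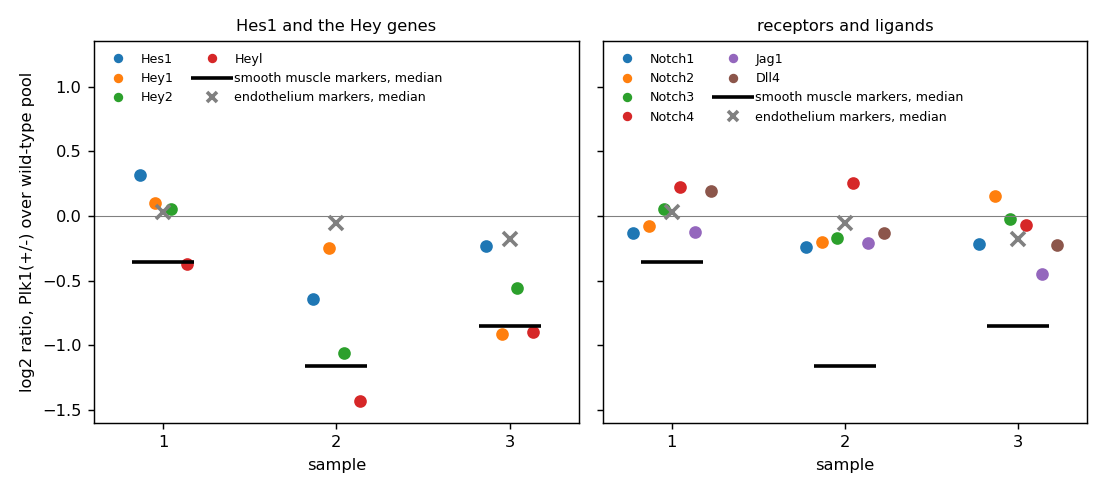
Log2 ratio of the target genes (left) and of the receptors and ligands (right) in each sample, with the median of 11 unsaturated smooth muscle markers (black bar) and of 20 endothelial markers (cross). Heyl lies within 0.3 of the smooth muscle median in each sample, while Notch3 lies 0.41 to 0.99 above it. Other marker lists are not drawn.

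The rest of the pathway was read through a list of 59 further genes, all of them measured and none saturated. Limma called 0 of 59 at an adjusted p under 0.05, and at an unadjusted p under 0.05 there were 3 higher and 7 lower, where 9.17% and 9.79% of all features stood at that level. The list's median was -0.04 beside 0.04 for all features. On all arrays 18 of the 59 genes were below 0 and 14 above 0, against 19.1% and 26.3% of all features. With median centring the list's median turned to 0.27 and 25 of 59 were called, beside 44.3% of all features.

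Among the other ligands and ligand-like proteins, 0 of 7 passed. The microfibril proteins Mfap5 and Mfap2, which bind Notch ligands and receptors besides building elastic microfibrils, had the lowest values. Mfap5 read -0.32, -0.78 and -0.53 (mean -0.54 ± 0.23, SD, n = 3; limma adjusted p = 0.166), and it is also in the list of fibroblast markers. Mfap2 read -0.46, -0.72 and -0.31 (mean -0.49 ± 0.21; limma adjusted p = 0.172), with a dimmer probe at -0.01 ± 0.03. The canonical ligand Dll1 had a mean of -0.14 ± 0.06. The divergent ligand Dll3 was not well above background in the pool on any array. Its ratio, 0.21 ± 0.18 with a 95% interval of -0.04 to 0.47 (limma adjusted p = 0.319), turned to -0.23 with median centring, so no fold is given.

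Of the genes that cut or glycosylate the receptor, 0 of 14 passed. Aph1a, a subunit of the gamma-secretase that frees the intracellular part, read 0.0083, 0.67 and 0.78 (mean 0.49 ± 0.42, SD, n = 3; limma adjusted p = 0.26), near the pool in sample 1 and above it in the other two, and its dimmer probe had a mean of 0.28 ± 0.30. The catalytic subunit gene Psen2 had a mean of 0.24 ± 0.22, the sheddase gene Adam10 0.16 ± 0.13 and the fringe glycosyltransferase gene Mfng 0.17 ± 0.14. Aph1a, Psen2 and Mfng were highest in sample 3, as the median of the lymphocyte markers was, while Adam10 was highest in sample 1. The part of lymphocytes in these values was not tested.

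In the transcription complex and its corepressors, 0 of 17 passed. Rbpj, the DNA-binding partner of every Notch receptor, read -0.17, -0.34 and -0.14, below the pool in all 3 samples, with a mean of -0.22 ± 0.11 (SD, n = 3; limma adjusted p = 0.251). The coactivator gene Maml2 had a mean of -0.26 ± 0.15 on its brighter probe and -0.03 ± 0.20 on a dimmer one. Kat2b, an acetyltransferase of the activating complex, had a mean of -0.18 ± 0.09. The Groucho-type corepressor gene Tle4 read 0.76, 0.37 and 0.35, above the pool in all 3 samples, with a mean of 0.49 ± 0.23 (limma adjusted p = 0.181).

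Genes of receptor and ligand traffic and turnover held the lowest p of the list, and 0 of 13 passed. Dtx1, a Deltex ubiquitin ligase that binds the intracellular part of Notch, read 0.57, 0.48 and 0.59, nearly equal in the 3 samples, with a mean of 0.55 ± 0.06 (SD, n = 3; limma adjusted p = 0.0767). Its lowest value, in sample 2, was above the highest ratio of any of the 10 members. Its range over 17 settings was 0.53 to 0.88, with limma adjusted p between 0.0224, under median centring, and 0.46. The related genes Dtx2 and Dtx3 had means of 0.22 ± 0.16 and -0.18 ± 0.08. Mib1, the ligase that drives ligand uptake, had a mean of -0.28 ± 0.09 on its brighter probe and 0.03 ± 0.16 on a dimmer one.

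In the remaining HES and related family, 0 of 8 passed. Bhlhe40, a clock-linked repressor of a neighbouring family, read -0.37, -0.43 and -0.98 (mean -0.59 ± 0.34, SD, n = 3; limma adjusted p = 0.193), lowest in sample 3 as Hey1 was. Hes3 had a mean of -0.29 ± 0.12 at a mean log2 intensity of 6.52, well above background on 1 array in Cy3 and 2 in Cy5. It went to -0.69 without the normexp offset and to -0.79 with median centring, past the threshold there (limma adjusted p = 0.0224). Hes5, a Notch target of neural and other progenitors, read 0.74, 0.08 and -0.12 (mean 0.24 ± 0.45). Hes7 was not well above background in the pool on any array. Its ratio of 0.15 ± 0.07 (limma adjusted p = 0.316) turned to -0.33 with median centring and to -0.015 with the deposited log ratio, so no fold is given.

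**Figure D5:**
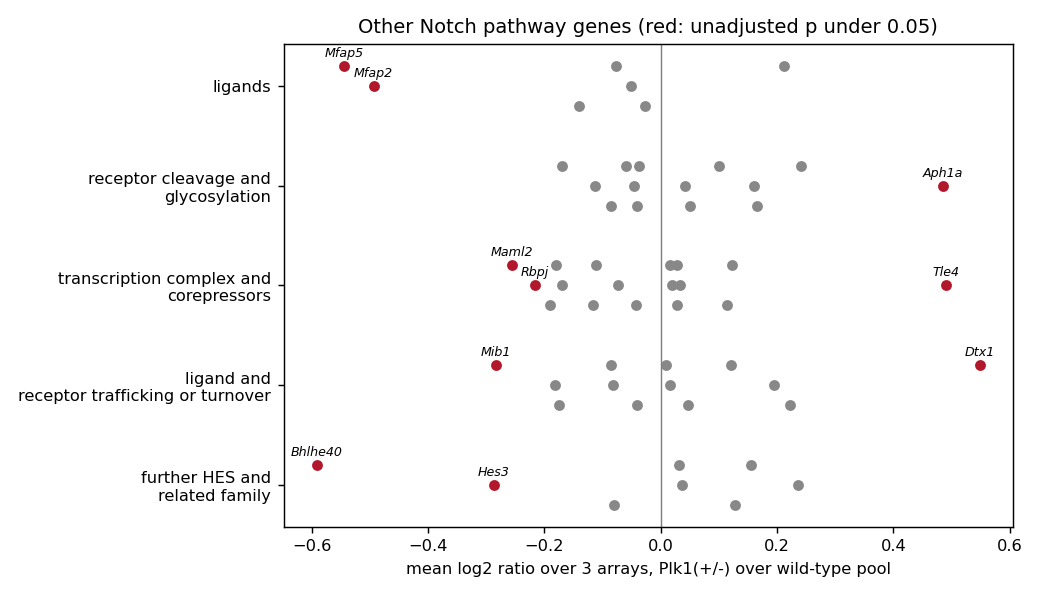
Mean log2 ratio over 3 arrays of 59 further Notch pathway genes in 5 role groups; red points, named, have an unadjusted limma p under 0.05. Of these, 7 lie below 0 and 3 above 0, with Dtx1 highest at 0.55 and Bhlhe40 lowest at -0.59, and 0 passed after adjustment.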

How the data were processed

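The deposited spot intensity values come from 3 arrays of 1 slide in 1 scan. Per the file headers, the software was Feature Extraction 9.5.3.1. The deposited log10 ratio is processed Cy5 over processed Cy3. The authors' series values are log2 ratios for 28817 probes, with centring not stated. Limma 3.58.1 (R 4.3.3) applied normexp (offset 50) to the mean signals and then loess, in which control spots had no weight. Repeated spots of a probe were averaged after removing control and outlier-flagged spots. A two-sided limma test (lmFit, eBayes) asked whether each feature's ratio differs from 0. Its p-values were adjusted by Benjamini and Hochberg's method over the 22043 features, and the fit was checked on simulated data. The pool is 1 control sample, so the control's own spread is left out. The labels call the 3 aortas biological replicates. Names were updated through GRCm38.p6. Members and lists were chosen with earlier results of these data known. Named were all members and, in each role group of the list, the 4 genes with the smallest unadjusted p. Of these 20 genes, 6 had a further kept probe, which for 1 (Mib1) had the opposite sign. Spike-in slopes, measured against nominal log ratio, were 0.793 to 0.823 per the file headers, where 1 would be no compression. Alternatives varied background correction, scaling, probe filter, probe choice, spread model and samples left out.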

Additional observations from a re-analysis of the deposited data

How the results depend on the processing

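The count of members called by limma was 0 of 10 under 16 of 17 alternatives and 2 with median centring, where 25 of 59 further pathway genes were called, against 0 under the other 16. At that setting 44.3% of all features were called. Median centring raised the median of all features by 0.19. It turned Notch1 to 0.082, Notch2 to 0.38, Notch3 to 0.39, Jag1 to 0.17, Dll4 to 0.091, Hey1 to 0.061, Dll1 to 0.093, Rbpj to 0.058, Kat2b to 0.20, Mib1 to 0.19, Dtx3 to 0.19, Dll3 to -0.23, Adam10 to -0.061 and Hes7 to -0.33, and Agilent's deposited log ratio turned Hes7 to -0.015. Leaving out 1 sample at a time gave ranges of -0.14 to 0.038 for Notch2, -0.10 to 0.013 for Notch3, -0.18 to 0.032 for Dll4, -0.44 to 0.042 for Hes1 and -0.017 to 0.41 for Hes5. Of 170 member values under alternatives, 159 kept their direction and side of the threshold, 10 turned, among them Notch3, which also became a call, and Notch4 became a call in its own direction. The cause of these changes was not tested. Leaving out saturated features ended all calls over the whole table (0 of 21514, with 3806 at an unadjusted p under 0.05) and changed no member's ratio. No paired analysis was possible because the arrays form 1 group. All arrays share a slide and a scan, so no slide block was run. With 3 arrays, and signals near background for Dll3, Hes3, Hes7 and the dimmer Jag1 probe, small differences were not detectable.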
